A study of Mus musculus with 20 samples.

Results

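The intercalated disc joins heart muscle cells end to end, and 10 of its junction genes were followed here out of 23420 genes counted in cardiac RNA-seq libraries. They were afadin, listed under its older symbol Mllt4, the adherens junction genes Cdh2, Ctnna3 and Ctnnb1, the desmosome genes Dsp, Dsg2, Dsc2 and Pkp2, plakoglobin (Jup), which belongs to both junctions, and the gap junction gene Gja1. They were taken by gene symbol, as a set built around Mllt4, which was chosen by its difference in counts between the diets, large and regular in these same libraries. The diet contrast of the 10 genes is therefore given below as a description, with no p-value. Whether a junction gene passed the calling rule defined below is likewise stated as a description, not as a test of the contrast. All 10 passed the expression filter of at least 1 CPM (read pairs of a gene scaled to the size of the library) in at least 10 mice, as did 13590 genes in all. The filter used library totals, and the levels printed below use totals adjusted by TMM normalization.

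The libraries came from whole hearts of 20 male wild type C57BL/6 mice (C57BL/6J in the study's methods) aged 9 weeks. From 3 weeks of age, 10 mice ate a control diet and 10 ate an iron-deficient diet, in both cases for 6 weeks, and the second group is called IDA, for iron-deficiency anemia. Each library was a separate mouse, and no other agent or allele was given to either group. The question put to the junction genes was how their mRNA levels differed between the hearts of IDA and control mice.

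In the working heart, adherens junctions and desmosomes hold neighboring cardiomyocytes together, and gap junctions let current pass from cell to cell. Classical cadherins reach the actin cytoskeleton through beta-catenin or plakoglobin and an alpha-catenin, while desmosomal cadherins reach desmin filaments through plakoglobin, plakophilin and desmoplakin. Afadin binds nectins and actin and is found at the adherens junction, and inherited variants of several desmosomal genes cause arrhythmogenic cardiomyopathy.

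Promoters are shown for Mllt4 and Jup because, among the junction genes whose promoter was searched, they had the lowest and the highest difference between the diets. Hypoxia-inducible factors, which are under study in these hearts, bind a short core, and the letters ACGTG or GCGTG were searched on both strands of the 250 bases before each gene start, with overlapping matches counted separately. RefSeq sequences (GRCm38, the mm10 assembly) were searched for 6 of the 10 genes, in 9 windows. Capitals mark the matches, which read CACGC on the strand shown. The Mllt4 window lies at chr17:13760291-13760540 on the plus strand, and the Jup window at chr11:100397791-100398040 on the minus strand.
Mllt4: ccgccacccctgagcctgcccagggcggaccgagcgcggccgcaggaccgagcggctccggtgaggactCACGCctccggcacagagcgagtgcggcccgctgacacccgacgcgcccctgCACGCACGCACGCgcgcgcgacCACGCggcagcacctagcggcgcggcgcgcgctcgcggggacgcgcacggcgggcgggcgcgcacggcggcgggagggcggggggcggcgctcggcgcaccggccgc
Jup: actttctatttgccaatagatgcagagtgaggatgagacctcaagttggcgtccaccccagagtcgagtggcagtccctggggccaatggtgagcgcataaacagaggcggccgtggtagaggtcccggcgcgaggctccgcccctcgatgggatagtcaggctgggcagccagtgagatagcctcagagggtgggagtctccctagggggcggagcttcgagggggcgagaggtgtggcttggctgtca

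The Mllt4 window held 5 matches, 181, 129, 125, 121 and 107 bases before the start, and the Jup window held none. At least 4 matches were found in 2.60% of the 32851 promoters of the same length, and at least 1 in 38.6%. At least 1 match was found in 6 of the 9 windows and for 5 of the 6 genes. The windows of Ctnnb1 overlap and hold the same match, which is counted in each. Some genes had several windows, whereas the shares over all promoters are per window. A Ctnna3 window held 4 matches, so Mllt4 was not alone in reaching that number. GC content was 82.8% in the Mllt4 window and 62.0% in the Jup window. A match of these letters is a description of the sequence and not evidence that a factor was bound there.

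Library totals ran from 6797180 to 8960688 read pairs in control mice and from 6682177 to 7833916 in IDA mice. Cardiomyocyte markers were high in every heart, with a summed level of 3051 to 3973 CPM in control and 3298 to 4103 CPM in IDA mice. Of the 7 markers, 0 were called as counted, while 2 were called higher and 4 lower after the exonic length correction described below. Duplicate read pairs had been removed before counting, which limits the counts of short, abundant genes. Myl2, with 633 bp of exons, had a mean of 1341 read pairs in control and 1387 in IDA mice. The sums and calls of these markers therefore cannot show whether cardiomyocyte content was the same on both diets. Long genes had fewer counts, relative to short genes, in the IDA libraries. The slope of a library's log2 deviation on log2 exonic length lay between 0.0205 and 0.199 in control mice and between -0.254 and -0.0252 in IDA mice, and the groups did not overlap. With tested genes split into 10 classes of equal size by exonic length, the median log2 fold change was 0.34 in the shortest class and -0.53 in the longest. Of the 10 junction genes, 9 were longer than the median tested gene (their median length was 4531 bp, against 2900 bp). The fold change of each junction gene over all mice is therefore also given after the length trend of every library was removed. In whole-heart RNA, fewer cells of a type and less RNA per cell cannot be told apart.

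Most junction genes were lower in the hearts of IDA mice. Mllt4 and Dsg2 were the lowest relative to control, Jup was higher and Pkp2 was close to the control level. A gene was called when edgeR and DESeq2 both gave p below 0.01, the rule of the study. By this rule 59.8% of all tested genes were called, 29.2% lower and 30.6% higher in IDA mice. The study, which left out a mouse of each group, reported far fewer genes by this rule, most of them lower in IDA hearts. The reason for this gap was not tested. Of the junction genes, 8 were called lower, 1 (Jup) higher and 1 (Pkp2) not, a count that the choice of the set helped to fix. Their median log2 fold change was -0.30, beside 0.02 over all tested genes. After the length trend was removed, these medians were -0.10 and 0.04.

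**Figure D1:**
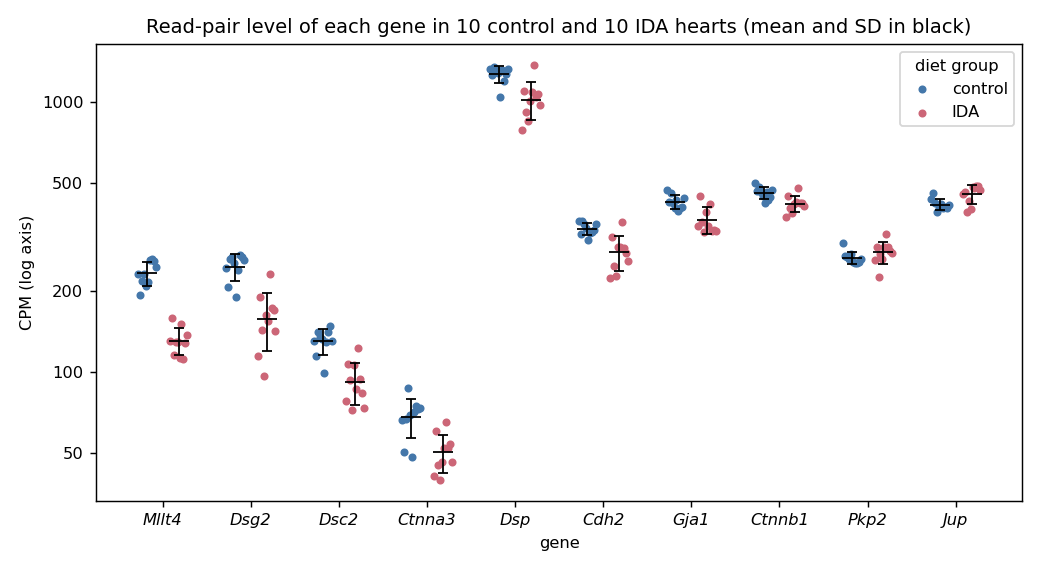
Level of each junction gene in every mouse, in CPM on a log vertical axis, with the genes along the horizontal axis (points are mice, blue for control and red for IDA, and black bars are the mean and SD, n = 10 per group). Mllt4 is the gene whose groups are apart, at 193 to 261 CPM in control and 112 to 158 CPM in IDA mice.

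Afadin (Mllt4, now Afdn; mm10 chr17:13760541-13905794, plus strand, 33 exon blocks) was lower in every IDA mouse than in any control mouse. Its level in control hearts was 193 CPM at the lowest, 230 at the median and 261 at the highest, and in IDA hearts 112, 129 and 158 CPM. The counts behind these levels were 1291 to 2317 read pairs in control and 756 to 1068 in IDA mice. The mean was 232 ± 23.6 CPM (SD, n = 10) in control and 130.1 ± 15.1 CPM in IDA mice, a log2 fold change of -0.83 (SE 0.066), or 1.78-fold higher in control hearts. By the size of fold change over its SE it was rank 2 of 13590 tested genes, the property for which it had been chosen. Groups that did not overlap in CPM were found for 11.3% of tested genes (6.28% lower and 4.97% higher in IDA). Among the junction genes, Mllt4 was the 1 gene whose groups were apart, and the other 9 overlapped.

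Mllt4 is also long, with 7383 bp of exons, which places it in the longest class of tested genes. Removing the length trend brought its log2 fold change to -0.35 (SE 0.060) and its rank to 1795, and its groups then overlapped, at 7.47 to 7.73 on the log2 scale in control and 7.03 to 7.50 in IDA mice. Groups apart in this direction were left for 2.12% of tested genes after the correction. By the calling rule Mllt4 was on the lower side after the length correction, when 44.8% of tested genes were called in either direction. With the GC content of the longest transcript added to the correction, its log2 fold change was -0.34 (SE 0.060). It was then the 1 junction gene called, when 36.9% of tested genes were. Since Mllt4 was chosen by this same contrast, these calls describe it and are no test that sets it apart from the other junction genes.

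The adherens junction cadherin Cdh2 (N-cadherin; chr18:16588877-16809049, minus strand, 16 exon blocks) was lower in 9 of 10 IDA mice than the control mean. Its lowest, median and highest levels were 309, 339 and 361 CPM in control and 222, 282 and 359.6 CPM in IDA mice. Of the IDA mice, 8 lay under the whole control range and 1 reached its upper end, and their coefficient of variation was 15.1% against 5.09% in control mice. Its log2 fold change was -0.29 (SE 0.067), and with length corrected it was -0.04 (SE 0.057) and no longer called.

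The alpha-catenin of the heart's mixed junctions, Ctnna3 (alphaT-catenin; chr10:63430098-65003667, plus strand, 20 exon blocks), had the lowest counts of the set. It was at 48.3, 70.0 and 87.0 CPM (lowest, median, highest) in control and at 39.7, 49.3 and 65.4 CPM in IDA mice. All 10 IDA mice were under the control mean, 5 of them under the control range. Ctnna3 had a log2 fold change of -0.44 (SE 0.099), and -0.26 (SE 0.088) after the length correction, and with GC content added it was at -0.17 (SE 0.082) and not called.

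Ctnnb1 (beta-catenin, which binds cadherin tails and also acts as a transcriptional co-factor in Wnt signaling; chr9:120933400-120960507, plus strand, 15 exon blocks) differed little. Its levels were 423, 462 and 500.3 CPM in control and 376, 419 and 479 CPM in IDA mice, with 9 of 10 IDA mice under the control mean. The fold change on the log2 scale was -0.13 (SE 0.041), and with length corrected it was 0.00 (SE 0.041) and the call was lost.

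Among desmosomal genes, both cadherins were lower and the linker proteins split. Dsg2 (desmoglein 2; chr18:20558116-20604526, plus strand, 15 exon blocks) was at 189, 255.99 and 269.9 CPM in control and 96.2, 159 and 231 CPM in IDA mice. Each IDA mouse was under the control mean and 8 were under the control range, and the spread among IDA mice was the widest of the set, with a coefficient of variation of 24.1%. Dsg2 had a log2 fold change of -0.64 (SE 0.11), and -0.29 (SE 0.088) after the length correction. Its partner Dsc2 (desmocollin 2; chr18:20030798-20059505, minus strand, 17 exon blocks) was at 98.9, 131 and 148 CPM in control and 72.5, 89.7 and 123 CPM in IDA mice. Here too all 10 IDA mice were under the control mean, and 7 were under the control range. The log2 fold change of Dsc2 was -0.50 (SE 0.086), and -0.27 (SE 0.066) after the correction. With GC content added, Dsg2 was at -0.24 (SE 0.085) and Dsc2 at -0.09 (SE 0.054), and neither was called.

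Dsp (desmoplakin, which ties the desmosome to desmin; chr13:38151294-38198577, plus strand, 24 exon blocks) had the most counts and the longest exons of the set, 9592 bp. It was at 1041, 1295 and 1348 CPM in control and 787, 1023 and 1371 CPM in IDA mice. The highest IDA mouse was above every control mouse, while 9 of 10 IDA mice were under the control mean. Dsp had a log2 fold change of -0.32 (SE 0.073), a smaller difference than the median of -0.53 among genes of the longest class. With length corrected it turned to 0.27 (SE 0.065), a call in the other direction, and it was 0.14 (SE 0.061) with GC content added, with no call.

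Pkp2 (plakophilin 2, an armadillo protein of the desmosomal plaque; chr16:16213345-16272712, plus strand, 13 exon blocks) was at 252.3, 262 and 299.8 CPM in control and 225, 277 and 323 CPM in IDA mice. Only 3 of 10 IDA mice were under the control mean, and the IDA range enclosed the control range. Pkp2 had a log2 fold change of 0.06 (SE 0.048), and 0.10 (SE 0.051) after the correction.

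Jup (plakoglobin, shared by desmosomes and adherens junctions; chr11:100368856-100397790, minus strand, 14 exon blocks) was the 1 gene called higher. It was at 391, 411 and 459 CPM in control and 389, 467 and 489 CPM in IDA mice. The lowest mice of both groups were at nearly the same level, 2 of 10 IDA mice were under the control mean and 6 were above the control range. Jup had a log2 fold change of 0.13 (SE 0.044). Jup is longer than most tested genes (5009 bp), and the median log2 fold change in its length class was -0.32. With log2 library size as a covariate it was 0.02 (SE 0.034) and not called. Corrected for length, its log2 fold change was 0.42 (SE 0.065). With GC content added it was 0.12 (SE 0.050) and not called, and its transcript had the highest GC content of the set, 58.8%.

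Gja1 (connexin 43, the main ventricular gap junction channel; chr10:56377300-56390419, plus strand, 2 exon blocks) was at 393, 423 and 473 CPM in control and 329, 347 and 449.6 CPM in IDA mice. Of the IDA mice, 8 lay under the control range and 9 under its mean. The log2 fold change was -0.23 (SE 0.055). Gja1 lies in a length class whose median log2 fold change was 0.00, and the correction moved it only to -0.16 (SE 0.053), while adding GC content gave 0.04 (SE 0.044). Its transcript had the lowest GC content of the set, 42.2%.

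**Figure D2:**
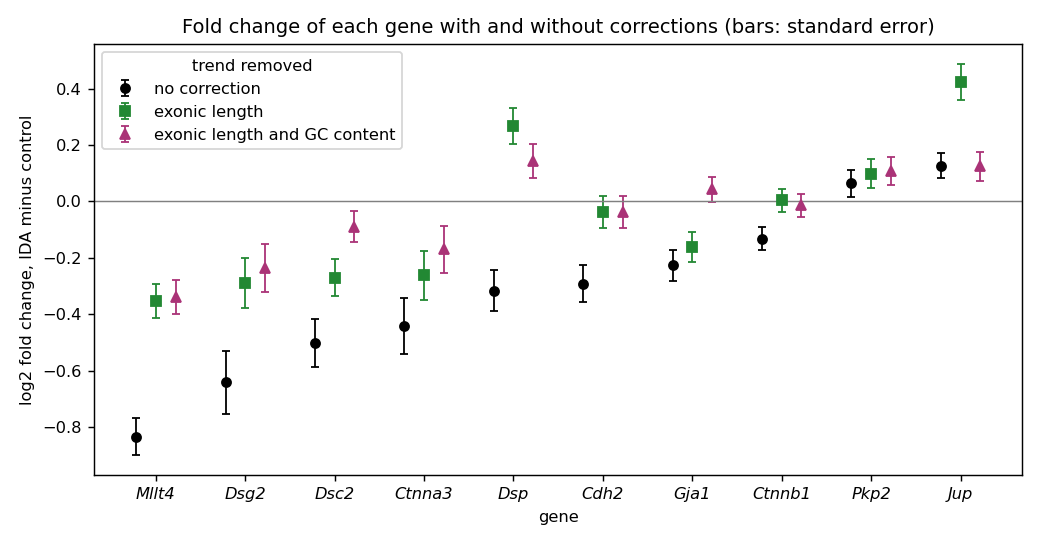
Log2 fold change (IDA minus control) on the vertical axis for each junction gene on the horizontal axis, as counted (circles), after the exonic length correction (squares) and after the length and GC correction (triangles), with bars for the standard error. Mllt4 stays the lowest with each, and Dsp is below 0 as counted (-0.32) and above it after the length correction (0.27).

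After the length correction 5 junction genes were called lower (Mllt4, Dsg2, Dsc2, Ctnna3 and Gja1), 2 were called higher (Dsp and Jup) and 3 were not called (Cdh2, Pkp2 and Ctnnb1). Over all tested genes, 20.5% were then called lower and 24.3% higher. The part of GC content and of RNA quality in these differences was not tested further.

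**Figure D3:**
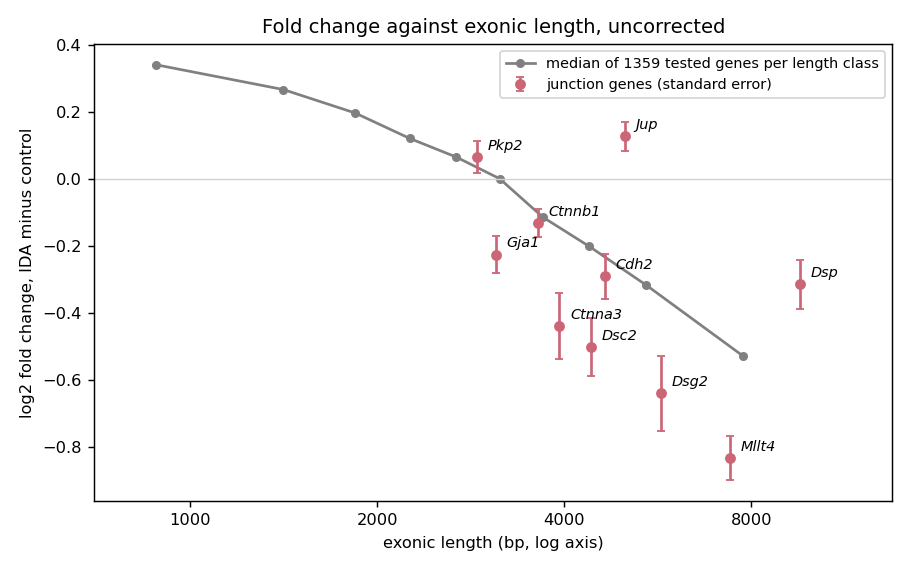
Log2 fold change (IDA minus control) on the vertical axis against exonic length in bp on a log axis, with the median of each of 10 length classes of tested genes in grey and each junction gene as a labelled red point with its standard error. The medians go from 0.34 in the shortest class to -0.53 in the longest, with Mllt4 below the line and Jup above it.

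Per kilobase of exon, which allows levels of different genes to be set side by side, the order of the genes was much the same on both diets. In control hearts Gja1 (137 ± 8.32 CPM per kb, SD), Dsp (132 ± 9.48) and Ctnnb1 (127 ± 6.53) were highest, with neighbors that differed by less than their SDs. Pkp2 (91.5 ± 4.87), Jup (83.1 ± 3.94) and Cdh2 (73.0 ± 3.71) came next. Below them were Dsg2 (42.8 ± 4.80), Mllt4 (31.4 ± 3.20), Dsc2 (29.4 ± 3.17) and Ctnna3 (17.3 ± 2.90), of which Mllt4 and Dsc2 lay within an SD of each other. In IDA hearts Mllt4 (17.6 ± 2.05) was below Dsc2 (20.8 ± 3.69), and Dsp (106 ± 16.8) was below Ctnnb1 (116 ± 8.09), both within the larger SD. The other genes kept their places. These levels are as counted. With length corrected, Dsp was higher in IDA mice (log2 fold change 0.27) and Ctnnb1 was at 0.00. These fold changes do not give the order of the genes per kilobase after the correction, which was not worked out. Mllt4 (-0.35) and Dsc2 (-0.27) had similar corrected fold changes.

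Read pairs at identical positions had been removed before counting, and no gene of at least 200 bp exceeded 2.06 to 2.39 pairs per exonic base, depending on the mouse. The junction genes were below this level, from 0.134 (Ctnna3) to 1.05 (Gja1) pairs per base in control hearts. Differences in Gja1, Dsp and Ctnnb1 rest on the densest coverage of the set, and how much duplicate removal lowered them was not tested.

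Within each diet the junction genes varied together to some degree, and more so among IDA mice. Over the 45 pairs of genes, Pearson's r of log2 CPM ranged from -0.71 to 0.95 in control mice (median 0.44, 32 pairs above 0) and from -0.11 to 0.98 in IDA mice (median 0.70, 43 pairs above 0). The tightest pair was Dsp with Ctnnb1 in IDA mice (r = 0.98) and Dsg2 with Dsc2 in control mice (r = 0.95). These values are descriptions over 10 mice a group, and the pairs share libraries and depth. With length corrected, the medians were 0.17 in control mice and 0.59 in IDA mice, and the difference between the diets was not tested.

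Individual mice were at the edge of several genes at once. Control replicate 6 had the lowest level of Cdh2, Dsp, Dsg2, Dsc2, Ctnna3 and Ctnnb1, and IDA replicate 7 had the highest level of the same genes and of Pkp2. The length slope of IDA replicate 7, -0.0252, was also the highest of the IDA mice, and the slope of control replicate 6 was 0.0353. Neither mouse was extreme in Mllt4, Jup or Gja1. For genes lowest in control replicate 6 and highest in IDA replicate 7, leaving out both mice can only widen the separation. The next counts therefore describe the weight of these mice and nothing more. Pkp2, highest in IDA replicate 7 but not lowest in control replicate 6, went from 0.06 to 0.03 without them. Without this pair, 5 junction genes (Mllt4, Cdh2, Dsp, Dsg2 and Dsc2) had groups that did not overlap, all lower in IDA mice, as did 12.4% of all tested genes in that direction. The log2 fold changes were then -0.87 for Mllt4, -0.75 for Dsg2, -0.59 for Dsc2, -0.53 for Ctnna3, -0.40 for Dsp and -0.35 for Cdh2. Jup, at 0.12, lost its call, 8 genes were still called lower, when 60.5% of tested genes were called and 29.8% were called lower.

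The levels of some junction genes also followed the length slope within each diet. Across the 10 control mice, Pearson's r with the slope was 0.90 for Ctnna3, 0.85 for Dsg2, 0.80 for Dsc2 and 0.72 for Mllt4, and it was -0.85 for Jup. It was weaker for the other genes of control mice, at 0.44 for Dsp, 0.31 for Cdh2, -0.12 for Ctnnb1, -0.42 for Pkp2 and -0.47 for Gja1. Across the 10 IDA mice it was 0.84 for Dsc2, 0.75 for Cdh2, 0.73 for Ctnnb1, 0.71 for Dsg2 and Dsp, 0.69 for Gja1 and 0.59 for Ctnna3, but 0.30 for Mllt4. Gja1, Ctnnb1 and Pkp2 thus had opposite signs on the 2 diets. Each value is a description over 10 mice, since the slope is made from the same libraries as the levels. In IDA mice the values nearest 0 were those of Pkp2 (0.19), Jup (-0.29) and Mllt4 (0.30).

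**Figure D4:**
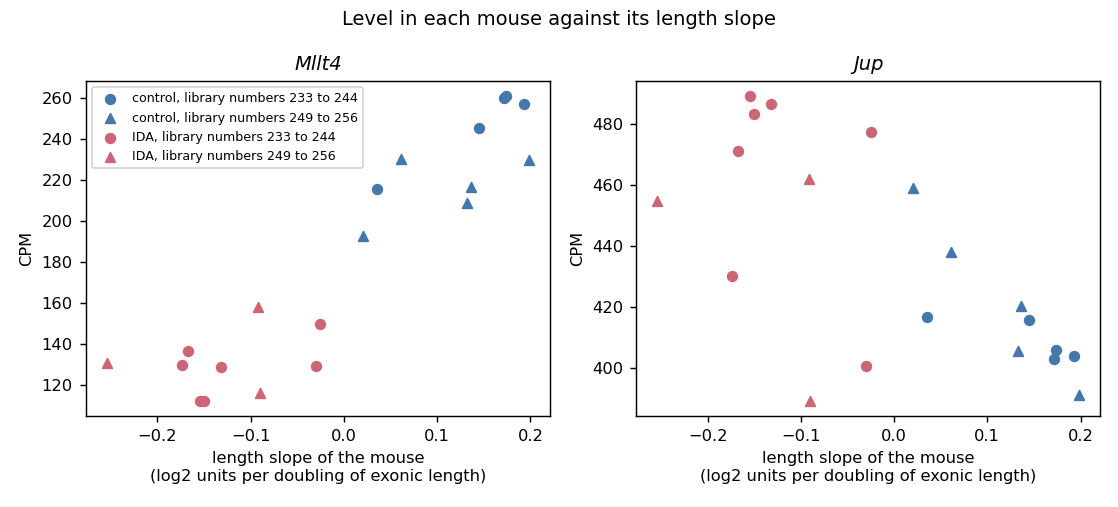
Level of Mllt4 (left) and Jup (right) in CPM on the vertical axes against each library's length slope (log2 units per doubling of exonic length) on the horizontal axes, for control mice in blue and IDA mice in red, with circles and triangles for the lower and upper run of library numbers. Control slopes lie between 0.0205 and 0.199 and IDA slopes between -0.254 and -0.0252, and among control mice Mllt4 is higher and Jup lower where the slope is higher (r = 0.72 and -0.85).

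Mllt4 was then compared with each of the 9 other genes within each diet. The choice of Mllt4 rested partly on its own spread within each diet, but not on its relation to the other genes. None of the 18 relations passed an adjusted p of 0.05 (two-sided permutation test, Benjamini-Hochberg over 18), and the lowest adjusted p was 0.383. The relation with the lowest unadjusted p was Mllt4 with Gja1 in IDA mice (r = 0.705, permutation p = 0.0243; Spearman's rho = 0.418, p = 0.233), and it rested on 2 mice, since r was -0.0175 without the mice farthest from the median. In control mice Mllt4 gave r = 0.624 with Ctnna3 (permutation p = 0.054) and r = -0.601 with Jup (permutation p = 0.0638). With length corrected, the lowest adjusted p was 0.944. In the 7 IDA mice of the lower run of library numbers, the adjusted permutation p lay between 0.714 and 0.718.

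Across all 20 mice, with each diet's mean taken out, the genes most like Mllt4 among 10604 genes of at least 10 CPM were Zfp383 (r = 0.84), Satb1 (0.82), Bahcc1 (0.80), Zfp275 (0.79) and Trib2 (0.79). Each was itself lower in IDA mice, with log2 fold changes of -0.49, -0.60, -0.63, -0.60 and -0.27 as counted and of -0.50, -0.16, 0.00, -0.19 and -0.06 with length corrected, when Satb1, Bahcc1 and Trib2 were not called. With the length trend removed, r with Mllt4 was 0.28 for Zfp383 and 0.71 for Satb1, and Sybu (0.78) and Nos2 (0.77) were then the most like. No other junction gene was near the top, with Ctnna3 at rank 744 (r = 0.52) and Jup at rank 6171 (r = -0.12). With the length trend removed, Ctnna3 was at rank 6343 (r = -0.03) and Jup at rank 998 (r = 0.35).

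The column names carry library numbers in 2 runs, a lower run of 5 control and 7 IDA mice and an upper run of 5 control and 3 IDA mice. What the runs stand for is not given in the sources used here. Mllt4 was at 248 ± 19.0 CPM in control and 128 ± 13.3 CPM in IDA mice of the lower run, a log2 fold change of -0.95. In the upper run it was at 216 ± 15.6 and 135 ± 21.3 CPM, a log2 fold change of -0.69. The lower-run and upper-run values were -0.60 and -0.74 for Dsg2, -0.50 in both for Dsc2, -0.42 and -0.49 for Ctnna3, -0.22 and -0.42 for Cdh2, -0.22 and -0.50 for Dsp, -0.22 and -0.20 for Gja1, and -0.08 and -0.22 for Ctnnb1. Pkp2 changed sign, at 0.15 and -0.10, and Jup was at 0.18 and 0.03. With length corrected, the values were -0.46 and -0.21 for Mllt4, 0.39 and 0.08 for Dsp, and 0.49 and 0.315 for Jup. Cdh2 (0.05 and -0.18), Ctnnb1 (0.07 and -0.10) and Pkp2 (0.20 and -0.07) then changed sign between the runs. Dsg2 was at -0.23 and -0.39, Dsc2 at -0.25 and -0.28, Ctnna3 at -0.23 and -0.33, and Gja1 at -0.15 and -0.14. The difference between the runs was tested as an interaction in edgeR over all genes, and the adjusted p of the 10 genes lay between 0.723 and 0.999. With length corrected, the adjusted p of this interaction lay between 0.554 and 0.993.

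The wider junction and adhesion machinery was read from 7 lists of other genes, of which 93 passed the filter. Of these, 42 fell in IDA hearts, 17 rose and 34 were not called, so 63.4% were called, beside 59.8% of all tested genes. Their median log2 fold change was -0.12. Corrected for length, 25 were called lower and 27 higher, with a median of 0.08 beside 0.04 over all tested genes. Over all tested genes, 20.5% were then called lower and 24.3% higher, the shares to set beside the corrected counts of each list below. The lists as a whole therefore had no direction that held under both readings. In the sentences that follow, each adjusted p is from edgeR's quasi-likelihood test over all tested genes.

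Of 14 nectins and afadin partners tested, 6 fell, 1 rose and 7 were not called, so 50% were called, beside 59.8% of all tested genes. After the length correction 3 were called lower and 3 higher. Rapgef2, an exchange factor for the afadin partner Rap1, fell from 97.9 ± 17.0 to 54.1 ± 10.9 CPM (SD), with a log2 fold change of -0.86 and an adjusted p of 8.3e-07. Pvrl2, the older symbol of nectin-2, rose from 96.1 ± 8.50 to 119 ± 13.4 CPM, with a log2 fold change of 0.31 and an adjusted p of 0.00015. Both were also called after the length correction, at -0.44 and 0.43. The other nectin genes tested, Pvrl1, Pvrl3 and Pvrl4, and Rap1a and Rap1b were not called as counted.

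Of 16 other scaffold and membrane genes of the disc, 8 fell and 2 rose (62.5% called, beside 59.8% of all tested genes), and with length corrected 4 were called lower and 6 higher. Tjp1 (ZO-1, which binds both connexin 43 and afadin) fell from 245.01 ± 37.5 to 119.6 ± 22.9 CPM, with a log2 fold change of -1.04 and an adjusted p of 1.7e-07. It was lower in every IDA mouse than in any control mouse, and after the length correction its log2 fold change was -0.58. Popdc3, a cyclic AMP-binding membrane protein, rose from 63.4 ± 3.64 to 75.5 ± 5.17 CPM, with a log2 fold change of 0.25 and an adjusted p of 3.6e-05, and its call was lost with the correction (0.11).

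Of 7 connexins and pannexins tested, 4 rose and 1 fell (71.4% called, beside 59.8% of all tested genes). Over all tested genes, 30.6% were called higher and 29.2% lower. The same counts of 4 and 1 were found after the length correction, beside 24.3% and 20.5% of all tested genes. As counted, this was the 1 list with more genes higher than lower, while with length corrected the desmosome and scaffold lists also had more higher calls. The median log2 fold change was 0.49, beside 0.02 over all tested genes. Gja3 (connexin 46) fell from 62.7 ± 6.16 to 50.9 ± 6.23 CPM, with a log2 fold change of -0.30 and an adjusted p of 0.00066. Panx1 (pannexin 1, an ATP-release channel) rose from 4.44 ± 0.778 to 8.54 ± 4.92 CPM, with a log2 fold change of 0.95 and an adjusted p of 0.00078. The vascular connexins Gja4 and Gja5, which are expressed in arterial endothelium and for Gja5 also in atrial and conduction myocytes, rose by 0.49 each on the log2 scale, with adjusted p of 2e-05 and 0.0086, and were at 0.31 and 0.56 with length corrected.

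Other desmosome and plakin genes had 2 lower, 1 higher and 4 not called of 7 tested (42.9% called, beside 59.8% of all tested genes). Periplakin (Ppl) fell from 17.0 ± 2.85 to 10.9 ± 2.55 CPM, a log2 fold change of -0.64 with an adjusted p of 6.8e-05. Perp, a desmosomal membrane protein, rose from 187 ± 9.5 to 201 ± 6.72 CPM, a log2 fold change of 0.11 with an adjusted p of 0.0063. Neither was called after the length correction, when Perp was at -0.03, whereas the plakins Evpl (envoplakin, 0.74) and Plec (plectin, 0.67) were then called higher. Perp also lost its call with log2 library size as a covariate (0.06) and with the replicate block (0.11). It was not called without control replicate 6 and IDA replicate 7 (0.09). In fits that left out a mouse of each group, it passed p below 0.01 in 70 of 100. The epidermal desmosomal genes Dsg1a, Dsg1b, Dsg3, Dsc1, Dsc3, Pkp1 and Pkp3 did not pass the expression filter.

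Of 10 other cadherins and catenins, 5 fell and 2 rose (70% called, beside 59.8% of all tested genes). With length corrected, 4 were called lower and 3 higher, beside 20.5% and 24.3% of all tested genes. Ctnnd1 (p120-catenin, which binds the N-cadherin tail) fell by 0.56 on the log2 scale with its groups apart, and Vcl (vinculin) fell by 0.43. With length corrected they were at -0.23 and -0.12. Ctnna1, the other alpha-catenin of the heart, was at 527 CPM in control and 507 CPM in IDA mice and was not called. By the naming rule, Cdh4 fell from 12.9 ± 4.46 to 7.62 ± 4.81 CPM (log2 fold change -0.75, adjusted p 0.0096) but passed p below 0.01 in only 31 of 100 fits that left out a mouse of each group, with fold changes of -1.14 to -0.53. Its call was lost with the length correction (-0.34, adjusted p 0.27). Ctnnbip1, an inhibitor of beta-catenin, rose from 94.3 ± 7.38 to 113 ± 6.97 CPM (log2 fold change 0.26, adjusted p 4.3e-05), and this was 0.28 after the length correction.

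Around Ctnnb1, 6 of 16 tested genes of the degradation complex and its targets fell and 2 rose (50% called, beside 59.8% of all tested genes), and with length corrected 5 were called lower and 3 higher. Apc, a scaffold of the complex with 12449 bp of exons, fell from 171 ± 33.7 to 87.7 ± 17.4 CPM (log2 fold change -0.96, adjusted p 5.9e-07), and was at -0.26 after the length correction. Gsk3a, a kinase of the complex, rose from 108 ± 5.50 to 124 ± 7.79 CPM (log2 fold change 0.20, adjusted p 0.00013), whereas Gsk3b, whose exons span 8298 bp against 2259 bp in Gsk3a, fell by 0.81 on the log2 scale. With length corrected, Gsk3a was at 0.13 and Gsk3b at -0.28, both called, but Gsk3a turned to -0.09 with GC content added. The Wnt target Axin2 fell by 0.69, with an adjusted p of 0.0006 (-0.47 with length corrected), while Ccnd1 and Myc were not called.

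Integrin and dystroglycan adhesion genes, which anchor the cell to the matrix, had 14 lower, 5 higher and 4 not called of 23 tested (82.6% called, beside 59.8% of all tested genes). With length corrected, 8 were called lower and 6 higher, beside 20.5% and 24.3% of all tested genes. The median log2 fold change was then 0.08 in place of -0.18. Sntb1 (beta1-syntrophin) fell from 5.96 ± 1.74 to 1.77 ± 0.709 CPM, a log2 fold change of -1.75 with an adjusted p of 4.3e-07, and it was at -1.84 after the length correction. Lims2 (PINCH2) rose from 129 ± 9.06 to 159 ± 20.7 CPM, a log2 fold change of 0.30 with an adjusted p of 0.00026, and its call was lost with the correction (0.13).

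**Figure D5:**
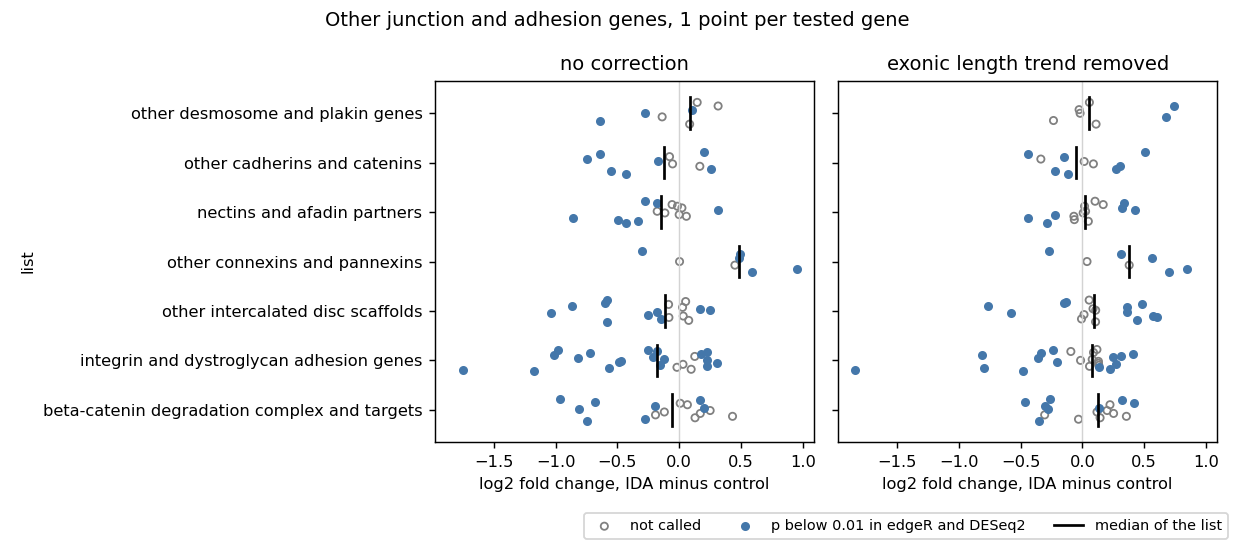
Log2 fold change (IDA minus control) on the horizontal axes of each tested gene of the 7 lists, as counted (left) and after the exonic length correction (right), with called genes filled, uncalled genes open and a black line at the median of each list. The connexin and pannexin list has the highest median, 0.49 as counted and 0.38 after the correction.

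Markers of other cell types were read beside these groups. Endothelial markers summed to 1511 to 1675 CPM in control and 1338 to 1627 CPM in IDA mice (3 of 6 lower and 1 higher as counted, and none lower and 1 higher with length corrected). For the next types the counts of markers are likewise as counted and then with length corrected. Fibroblast markers summed to 1478 to 1831 and 1440 to 1736 CPM (1 of 6 lower and 1 higher, then 2 lower and 3 higher), smooth muscle and pericyte markers to 999 to 1197 and 899 to 1143 CPM (2 of 6 lower and 1 higher, then 1 lower and 2 higher), macrophage markers to 538 to 610.0 and 515 to 647 CPM (2 of 7 lower and 3 higher, then 1 lower and 2 higher) and adipocyte markers to 107 to 159.6 and 126 to 146 CPM (1 of 4 tested higher, then 1 lower). None of the markers of these 4 types was at 0 in every mouse. Erythroid markers summed to 292 to 366 and 342 to 844 CPM, with 3 of the 4 tested higher and with Hba-a1 and Hba-a2 at 0 in every mouse. Epithelial and mesothelial markers, whose cells also hold desmosomes, summed to 12.7 to 55.9 CPM in control and 10.1 to 107 CPM in IDA mice (2 of 5 tested higher, Krt5 at 0 in every mouse). These sums were highest in IDA replicates 3 and 4, where Jup and Pkp2 were lowest in the former and Dsg2, Dsc2, Ctnna3 and Gja1 lowest in the latter. With the mean of the erythroid markers as a covariate, 7 junction genes were called lower and Ctnnb1 (-0.18) and Jup (0.14) were not called. Calls over all tested genes went from 8131 to 6042 with this covariate (44.5% called, 22.7% lower). Calls in the 7 lists went from 59 to 40, and Gja3 (-0.25), Panx1 (0.92), Ppl (-0.52), Perp (0.14) and Cdh4 (-1.15) were no longer called. The part of other cell types in the remaining differences was not tested.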

How the data were processed

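Hearts of 10 control and 10 IDA mice were grouped by their labels. Per the labels and the study's methods, poly(A)-selected libraries were sequenced as pairs of 75-base reads, aligned to mm10 with STAR, cleared of PCR duplicates with SAMtools and counted with featureCounts (version 1.4.5-p1 in the deposited header). The authors deposited raw counts of read pairs per gene name, without normalization, for 23420 genes with their exonic lengths. The counting was without strand. The study left out a mouse of each group for contamination without naming it, so all 20 were kept.

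Counts were analysed in R 4.3.3 with edgeR 4.0.16 (TMM, quasi-likelihood test) and DESeq2 1.42.0, on genes that reached 1 CPM or more in 10 or more mice. A gene was called at p below 0.01 in both, the rule of the study, and adjusted p-values are Benjamini-Hochberg over all 13590 genes. Levels are CPM, or log2 CPM with a prior count of 2. The length correction removed from each library a loess fit (span 0.5, degree 1) of its deviation on log2 exonic length, as offsets. Within-diet correlations used 100000 permutations. Depth limited precision by counting error, and intervals cover fitted error only. The fits were tested on simulated counts. Gene coordinates and exon blocks are those of the annotation in the deposited counts (mm10, equal to GRCm38). No exon of a junction gene overlapped one of another gene in that annotation. GC content was taken from GENCODE transcripts.

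The 10 genes and the 7 lists were chosen with earlier results of these data known. In each list, the called gene furthest from 0 in each direction is named, with the 5 genes most like Mllt4, and a few others were added after their values were seen (Ctnnd1, Vcl, Ctnna1, Gja4, Gja5, Gsk3b, Axin2, Ccnd1, Myc, Evpl, Sybu, Nos2 and those in the closing section). Alternatives were other scalings and filters, covariates for library size and erythroid markers, the replicate block and leave-one-out fits. Alternatives added after seeing the data were the GC correction, the runs of library numbers and the fit without control replicate 6 and IDA replicate 7.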

Additional observations from a re-analysis of the deposited data

Results flagged for a closer look

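Single mice stood apart in 3 of the 20 combinations of a junction gene and a diet. Chance gives about 1 in 20 for independent values, but these combinations share the same mice and their genes vary together. The count is therefore a description and is not read as an excess over chance. Dsp in control replicate 6 was at 1041 CPM, with the next control mouse at 1198 CPM. Dsp in IDA replicate 7 was at 1371 CPM, with the next IDA mouse at 1095 CPM. Pkp2 in control replicate 1 was at 299.8 CPM, with the next control mouse at 272 CPM. In each case the gap to the nearest mouse was a larger part of the range of the group than the 95% critical value of Dixon's test for 10 values.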

How the results depend on the processing

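The log2 fold changes of the junction genes kept their direction and their side of the threshold in 134 combinations of a gene and an alternative, lost the call in 18, gained one in 1 and reversed in 7. Calls over all genes were 8131, falling to 5227 under the replicate block with the length correction and to 5018 under the length and GC correction, where 1 junction gene was called. Removing the length trend reversed Dsp (0.27, and 0.27 with the replicate block), Ctnnb1 (0.0044 and 0.0047), Perp (-0.027 in both) and Bahcc1 (0.0041 and 0.012). The length and GC correction reversed Dsp (0.14), Gja1 (0.044), Lims2 (-0.021) and Gsk3a (-0.092), and library size as a covariate reversed Pkp2 (-0.029) and ended the call of Jup (0.025), as did the run of library numbers (0.12). The cause was not tested. Without a mouse of each group (100 fits) Mllt4 was at -0.89 to -0.79, Dsp at -0.40 to -0.27, Ctnnb1 at -0.17 to -0.11 and Jup at 0.10 to 0.17, where Ctnnb1 and Jup kept the edgeR side of the call in 67 and 31 of these fits. Replicate numbers did not pair the mice (correlations -0.278 to 0.264, 3 of 10 over 0.1), and with the replicate block 7461 genes were called and Jup (0.12) and Ctnnb1 (-0.13) were not.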

Other observations

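Several long cytoskeletal linkers, picked here after their values were seen, sat near 0 as counted and were higher once the length trend was removed. Plectin (Plec), which has 17515 bp of exons and ties desmin to junctions, went from -0.14 to 0.67 on the log2 scale. The talins Tln1 and Tln2, which link integrins to actin, went from 0.03 to 0.57 and from -0.08 to 0.60. Filamin C (Flnc) and Xirp1, both actin-binding proteins of striated muscle, went from -0.09 to 0.48 and from 0.08 to 0.44. None of these 5 was called as counted and all 5 were called higher after the correction, as were 24.3% of all tested genes, and since they were picked for this pattern the count supports nothing further. Other long genes stayed lower, among them Dmd (dystrophin, 13852 bp), at -0.98 as counted and -0.24 after the correction, and Utrn (utrophin, 12382 bp), at -1.18 and -0.48.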
